A study of Bos taurus with 4 samples.

Results

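The mitochondrial ribosomal proteins are the nuclear-encoded protein subunits of the ribosome inside mitochondria, and 37 of the 36373 sequence clusters counted in bovine subcutaneous adipose tissue were taken as members. A cluster was taken when its description in the authors' sequence file held the words "mitochondrial ribosomal protein", in any case, and was not the description of an unnamed expressed sequence tag. By their names 12 members belong to the small subunit (MRPS) and 25 to the large subunit (MRPL), and the member described as mitochondrial ribosomal protein 63 is written here by its present symbol, MRPL57. Each member symbol had 1 cluster. The particle holds further subunits, and genes without a cluster of such a description were not taken as members.

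Poly(A) RNA was sequenced from the subcutaneous fat of Qinchuan cattle, a Chinese breed, in 4 libraries. ATFB came from fetal bovines labelled 200 to 250 days old. The adult animals, labelled 18 to 24 months old, gave ATAB for bulls, ATAH for heifers and ATAS for steers, that is, males that had been castrated. Tissue of 5 animals was pooled for each library, so each group was represented by 1 library and differences between libraries could not be checked on replicates. The clusters held 15.3 M reads (M, mega) in ATFB and 15.6 M to 16.1 M in the adult libraries. The tissue label was checked against fat cell markers, of which 10 of 12 had a cluster and all 10 had reads in every library, with a summed level of 1313 RPKM (reads per kilobase of sequence and per M reads counted) in ATFB against 9078, 9466 and 8492 in ATAB, ATAH and ATAS.

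The mitochondrial ribosome translates the few messenger RNAs of the mitochondrial genome, all of which encode subunits of the respiratory chain and the ATP synthase. Its ribosomal RNAs come from mitochondrial DNA, while its proteins are made in the cytosol, imported and assembled on these RNAs. Some of the proteins descend from bacterial ribosomal proteins and others exist in mitochondria only, and brown and white fat cells depend on the respiratory chain for heat production and for lipid metabolism.

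The coding starts of the 2 members with the lowest and the 2 with the highest mean adult log2 ratio to ATFB, 1 of each per subunit name, identify the clusters on which the outer values rest. The first 60 bases of each coding range, as the sequence file gives it, are printed 5′ to 3′ with the annotated start codon in capitals. MRPS6 and MRPL17 were lowest in the adult libraries relative to ATFB, and MRPS18A and MRPL49 were highest.
MRPS6: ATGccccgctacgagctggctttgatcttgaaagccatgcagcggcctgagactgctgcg
MRPS18A: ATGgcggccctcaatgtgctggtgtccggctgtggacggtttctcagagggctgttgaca
MRPL17: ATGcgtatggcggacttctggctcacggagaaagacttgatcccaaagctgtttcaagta
MRPL49: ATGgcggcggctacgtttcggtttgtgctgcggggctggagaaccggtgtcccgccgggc
The coding ranges held 124 codons in MRPS6 (Bt.46405), 196 in MRPS18A (Bt.21792), 121 in MRPL17 (Bt.64113) and 164 in MRPL49 (Bt.21430), stop codon left out. In MRPL17 the annotated range began at base 235 of the cluster, with 1 open codon and then a stop codon upstream in its frame. In MRPS6 it began at base 143, with 47 open codons and no stop codon upstream. MRPS18A and MRPL49 each had 3 open codons and no stop codon there. Whether these ranges hold the whole proteins was not checked here.

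Every member was expressed in every library, with no fewer than 104 reads in any. The 37 members together took 1557 RPM (reads per M reads counted) in ATFB against 1105, 1133 and 1010 in ATAB, ATAH and ATAS. The summed level of the small subunit was 369 RPKM in ATFB against 272, 263 and 234 in ATAB, ATAH and ATAS, and that of the large subunit was 823, 538, 562 and 493 RPKM in the same order. Both subunits thus stood highest in the fetal library and lowest in the library of steers, and in bulk tissue fewer cells of a type and less RNA per cell cannot be told apart. The log2 ratio of the summed reads to ATFB was -0.49 for ATAB (95% interval -0.52 to -0.47), -0.46 for ATAH (-0.49 to -0.43) and -0.62 for ATAS (-0.65 to -0.59). These are exact Clopper-Pearson intervals and take in counting error alone, as reads that carry no molecular identifier are not independent molecules.

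Levels per length differed several-fold among members. Over the 4 libraries the highest mean levels of the large subunit were those of MRPL3 at 58.5 RPKM, MRPL2 at 46.8 and MRPL11 at 40.2. MRPL2 and MRPL3 lie next to the peptidyl transferase centre, where the peptide bond is made, and MRPL11 lies at the base of the stalk that binds translation factors. The lowest were MRPL55 at 7.93 RPKM and MRPL44 at 9.38, both proteins without a bacterial counterpart in this particle. In the small subunit MRPS18A had 54.5, MRPS34 51.3 and MRPS6 43.8 RPKM, while MRPS9 had 7.87 and MRPS18B 9.13. MRPS18A and MRPS18B are both homologues of the bacterial protein S18, and the former sits in the large subunit in spite of its name. Only reads with a single match were counted. In the clusters of MRPL55, MRPS9, MRPS18B and the high MRPS6, at least 20% of 40-base windows also occurred in another cluster. MRPL44 had no such window. The effect of shared windows on these levels was not tested. Lengths of the clusters ran from 845 to 2999 bases, and reads covered a median of 94.0% of a member's sequence in ATFB against 90.4%, 93.1% and 89.2% in ATAB, ATAH and ATAS.

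**Figure D1:**
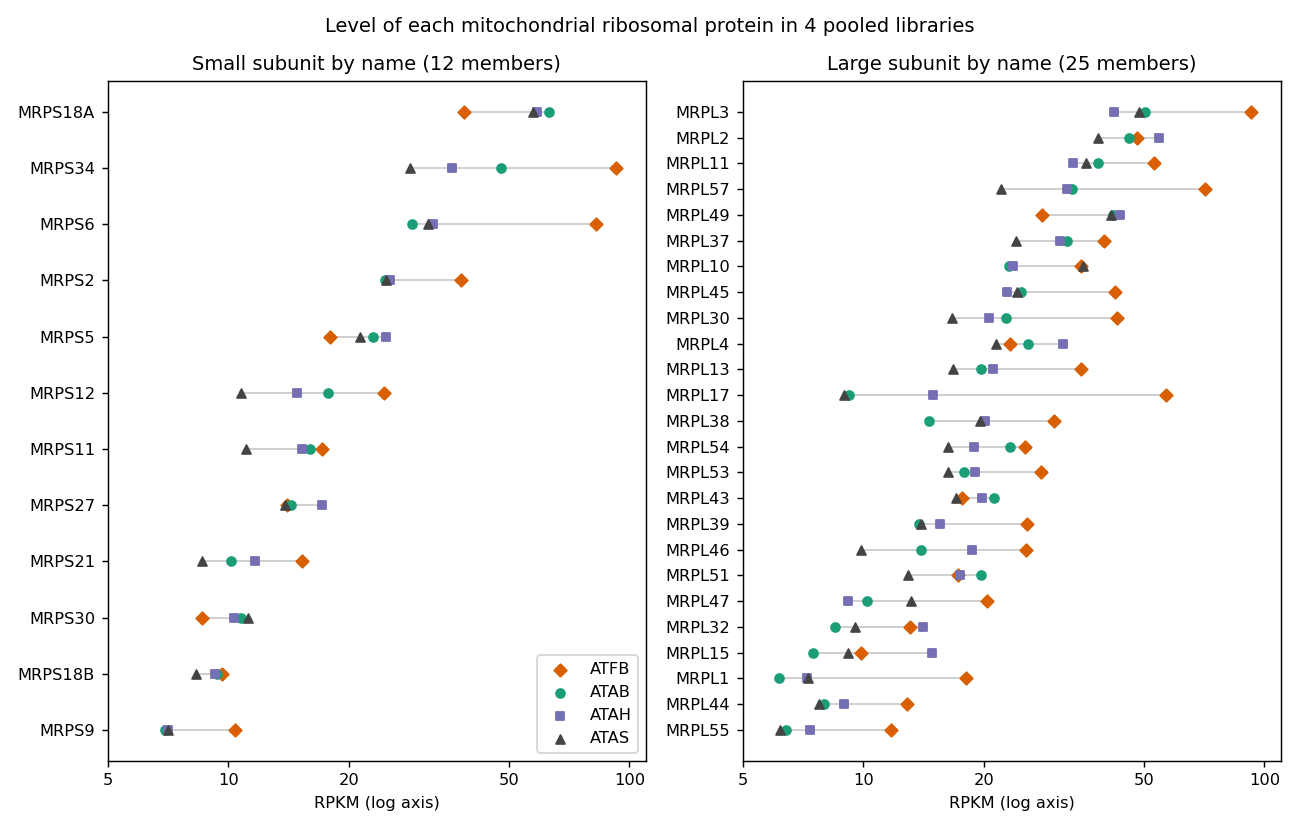
The RPKM of each member (log axis) in ATFB (diamonds), ATAB (circles), ATAH (squares) and ATAS (triangles), for the 12 small subunit and the 25 large subunit members by name, ordered by mean level; grey lines span the 4 libraries. The diamond of ATFB is the rightmost point for 25 of the 37 members and the leftmost for 4.

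The order of the members was much alike in the 3 adult libraries and less so between them and ATFB. Across the 37 members, Spearman's rho of the RPKM was 0.957 between ATAB and ATAH, 0.945 between ATAB and ATAS and 0.954 between ATAH and ATAS, against 0.755, 0.782 and 0.751 between ATFB and the adult libraries in the same order. These are descriptions across genes, which share cluster length and the library totals, and genes are not independent replicates.

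Fetal against adult tissue was the first comparison of the design. ATFB was above all 3 adult libraries for 25 of 37 members (67.6%), below all 3 for 4 members (10.8%) and within their range for 8. The background was the 21860 clusters with enough reads, that is, at least 50 over the 4 libraries together. Among them ATFB was above all 3 in 36.6% and below all 3 in 39.9%. The 4 members below all 3 were MRPL49, MRPS18A, MRPS5 and MRPS30. The median log2 ratio of the 37 members to ATFB was -0.60, -0.55 and -0.63 for ATAB, ATAH and ATAS, beside medians of -0.17, 0.10 and 0.14 for all clusters with at least 50 reads in the 2 libraries. For the small subunit the medians were -0.28, -0.28 and -0.59, and for the large subunit -0.69, -0.57 and -0.72. When the 2 members named for the small subunit but seated in the large one, MRPS18A and MRPS30, were counted by position, the small subunit medians were -0.52, -0.47 and -0.63 and those of the large subunit -0.64, -0.55 and -0.64.

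A member was called when an exact two-sided binomial test on its reads, given the 2 library totals, had a Benjamini-Hochberg FDR of at most 0.001 over all clusters and the log2 ratio was at least 1 in size. Such a test compares the 2 libraries, not the conditions. Between ATAB and ATFB 5 members (13.5%) were called lower, 1 small and 4 large, where 13.1% of all clusters were lower. No member was called higher, where 9.51% of all clusters were. Between ATAH and ATFB 8 members (21.6%) were lower, 2 small and 6 large, beside 9.83% of all clusters, and 0 were higher, beside 13.9%. Between ATAS and ATFB 9 members (24.3%) were lower, 3 small and 6 large, beside 10.5%, and 0 were higher, beside 15.5%. Among clusters with at least 50 reads the shares called lower were 20.1%, 15.1% and 15.8%, so the share of members called lower was below that background in ATAB and above it in ATAH and ATAS. The counts of members called lower were 3, 8 and 11 when libraries were scaled by TMM, beside 10.1%, 11.2% and 12.2% of all clusters, and 14, 10 and 15 when they were scaled by ACTB, an actin gene, beside 17.4%, 14% and 14.2%.

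More members passed the FDR with a smaller ratio. At any fold 24 members (64.9%) were lower in each of ATAB and ATAH, and 26 (70.3%) were in ATAS, where 35%, 27% and 27.2% of clusters with at least 50 reads were. At any fold 3 members (8.11%), 5 (13.5%) and 2 (5.41%) were higher in the same order, beside 24.7%, 33.7% and 36.8%. Passing the FDR at any fold depends on the number of reads, in which these clusters were not matched to the members. The 3 comparisons share the reads of ATFB and are given side by side only.

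**Figure D2:**
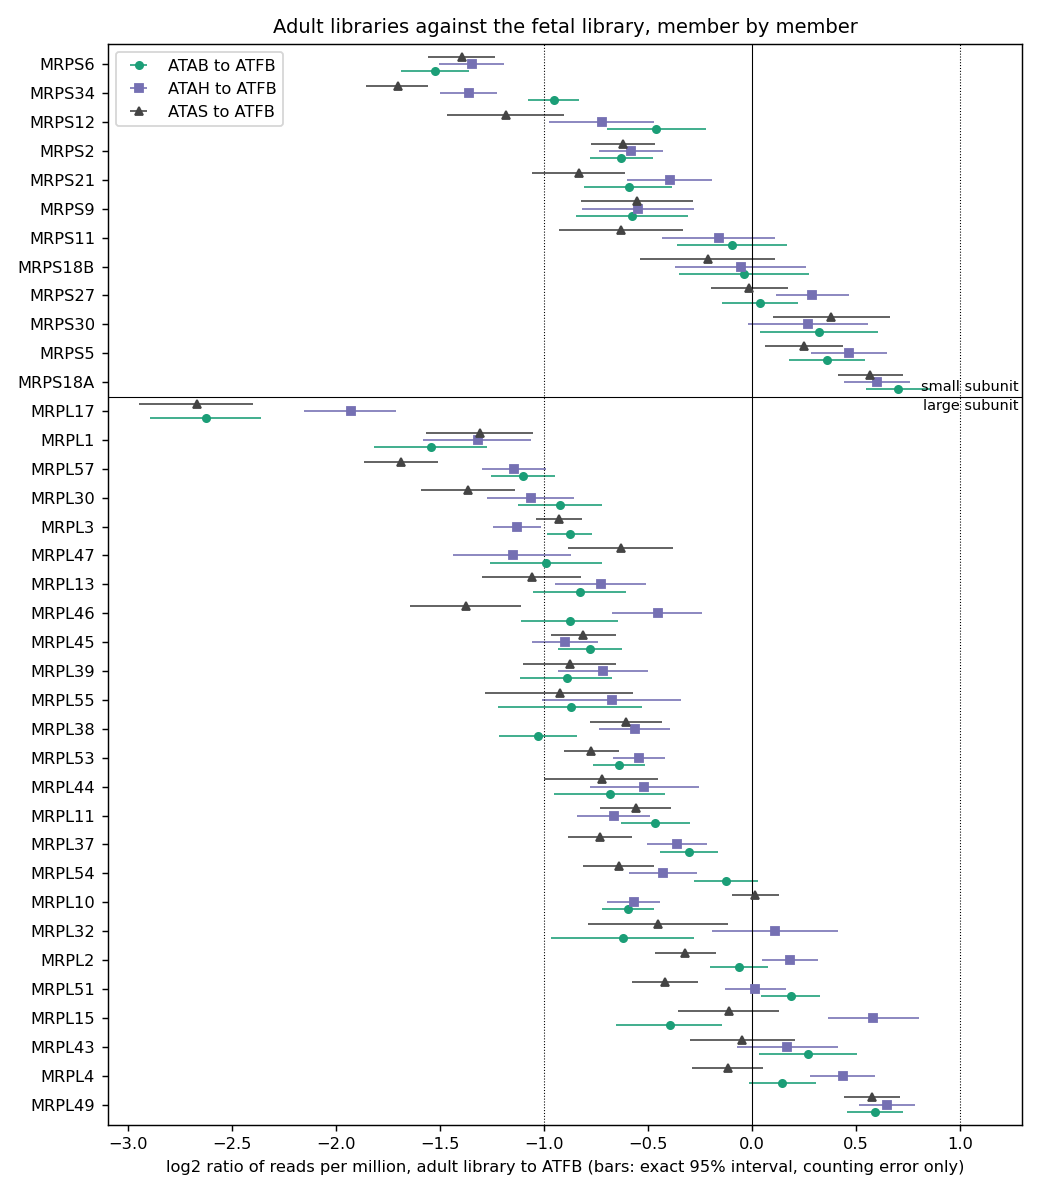
The log2 ratio of RPM of each member in ATAB (circles), ATAH (squares) and ATAS (triangles) to ATFB, with exact 95% intervals that cover counting error only; the solid line marks equality and the dotted lines a log2 ratio of 1 in size. The members MRPL17, MRPL1, MRPL57 and MRPS6 pass the lower dotted line in all 3 libraries, MRPL57 in ATAB not with TMM scaling (-0.93), and no member reaches the upper one.

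MRPL17, a homologue of a bacterial protein that lies near the exit of the tunnel of the large subunit, had the largest ratio. It had 800 reads in ATFB against 137, 214 and 128 in ATAB, ATAH and ATAS, which were 56.9, 9.21, 14.9 and 8.93 RPKM. All 3 adult libraries were far below ATFB, and ATAH stood above ATAB and ATAS. Relative to ATFB the log2 ratio was -2.63 (95% interval -2.90 to -2.36) for ATAB, -1.93 (-2.16 to -1.71) for ATAH and -2.67 (-2.95 to -2.40) for ATAS. Of the 40-base windows of its cluster 20.8% also occurred in another cluster, and only reads with a single match were counted. Reads covered 97.4% of its sequence in ATFB, and whether reads of shared windows were left out was not checked here.

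MRPL1, at the base of the stalk past which spent tRNA leaves, had 428 reads in ATFB and 155, 175 and 176 in ATAB, ATAH and ATAS. The levels were 18.0 RPKM in the fetal library and 6.18, 7.22 and 7.28 RPKM in the adult ones, so the adult libraries lay close together. Its log2 ratios were -1.55, -1.32 and -1.31.

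MRPL57, a protein found in mitochondria only, had 1082, 533, 499 and 342 reads in ATFB, ATAB, ATAH and ATAS. At 71.2, 33.2, 32.2 and 22.1 RPKM it was highest in ATFB and lowest in ATAS. The log2 ratios were -1.10, -1.15 and -1.69, the first of which fell short of the fold threshold when libraries were scaled by TMM, at -0.93. The direct ratio of ATAS was -0.59 to ATAB and -0.54 to ATAH, neither of them called.

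MRPS6, of the platform of the small subunit, had 1153 reads in ATFB against 424, 462 and 446 in ATAB, ATAH and ATAS. The levels of 82.6, 28.7, 32.4 and 31.4 RPKM put ATFB apart from 3 adult libraries that differed little. The log2 ratios to ATFB were -1.52, -1.35 and -1.40. Of its 40-base windows 53.7% were shared with another cluster.

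MRPS34 and MRPL30 were called lower in ATAH and ATAS when libraries were scaled by their totals. MRPS34, a small subunit protein without a bacterial counterpart, had the highest fetal level of all members, 92.8 RPKM, and stepped down to 47.9, 36.1 and 28.4 RPKM in ATAB, ATAH and ATAS. Its reads were 1540, 841, 611 and 481, and the log2 ratios -0.95, -1.36 and -1.71. MRPL30, next to the central protuberance, had 42.9, 22.7, 20.5 and 16.7 RPKM, and its ratios of -0.92, -1.07 and -1.37 had the same order.

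Another 6 members were called in 1 library each when libraries were scaled by their totals. MRPL3, of the peptidyl transferase region, was called in ATAH, at -1.13, with ratios of -0.88 in ATAB and -0.93 in ATAS. It fell from 92.6 RPKM in ATFB to 50.4, 42.2 and 48.6 RPKM in ATAB, ATAH and ATAS. MRPL47, the homologue of bacterial L29, was called in ATAH at -1.15 and stood at -0.99 in ATAB and -0.63 in ATAS. MRPL38, of the central protuberance, was called in ATAB at -1.03, with -0.57 in ATAH and -0.61 in ATAS, and in no library when TMM was used, where it stood at -0.85 in ATAB.

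The other 3 were called in ATAS. MRPL13, which joins the large subunit early in assembly, had a ratio of -1.06 there and -0.83 and -0.73 in ATAB and ATAH. MRPL46, a mitochondria-specific protein, had -1.38 in ATAS, -0.88 in ATAB and -0.46 in ATAH. MRPS12, of the decoding centre, had 341 reads in ATFB against 262, 211 and 153 in ATAB, ATAH and ATAS, and ratios of -0.46, -0.72 and -1.18. For these members a call in 1 library was not shown to differ from none in another unless their own comparison is given.

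The largest ratios above 0 were those of MRPS18A and MRPL49 in each of the 3 comparisons. MRPS18A had 552 reads in ATFB against 949, 854 and 834 in ATAB, ATAH and ATAS, or 38.8, 63.1, 58.8 and 57.5 RPKM. All adult libraries were above ATFB, at log2 ratios of 0.70 (95% interval 0.55 to 0.86), 0.60 (0.44 to 0.76) and 0.57 (0.41 to 0.73), below the fold threshold. MRPL49, a mitochondria-specific protein, had 742, 1180, 1187 and 1126 reads and 27.8, 41.9, 43.6 and 41.5 RPKM, and its ratios were 0.59, 0.65 and 0.58. MRPS5, at the entry of the mRNA channel, had ratios of 0.36, 0.47 and 0.25, and MRPS30 of 0.32, 0.27 and 0.38. Scaling by ACTB, which shifted ratios to ATFB by -0.24 to -0.27, takes the smallest of these to about 0.

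The remaining 21 members were called in no comparison with ATFB when libraries were scaled by their totals. Their ratios lay between -0.93 for MRPL55 in ATAS and 0.58 for MRPL15 in ATAH. MRPL55 was called lower in ATAS with TMM or ACTB scaling, and others of them were with ACTB. Of the other small subunit members, MRPS2, MRPS9 and MRPS21 had ratios of -0.63, -0.58 and -0.59 in ATAB. MRPS11, MRPS18B and MRPS27 had -0.10, -0.04 and 0.04 there. In the large subunit MRPL45, which anchors the ribosome to the inner membrane, had 42.5 RPKM in ATFB and 24.7, 22.8 and 24.2 RPKM in ATAB, ATAH and ATAS. Its ratios of -0.78, -0.90 and -0.81 were past the FDR and short of the fold threshold.

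Members of 1 structural region did not share 1 ratio. At the stalk that binds translation factors MRPL11 had ratios of -0.47, -0.67 and -0.56, whereas MRPL10 had -0.60, -0.57 and 0.01. Of the 2 members next to the peptidyl transferase centre, MRPL2 stood at -0.06, 0.18 and -0.32, above the values of MRPL3. Of the S18 homologues, MRPS18B stood at -0.04, -0.05 and -0.21, with 62.2% of its 40-base windows shared with another cluster, and MRPS18A at the positive values above. Members with a bacterial counterpart (21) and mitochondria-specific members (16) had medians of -0.59 and -0.66 in ATAB, -0.57 and -0.49 in ATAH and -0.62 and -0.73 in ATAS.

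The ratio was also set against each member's level and sequence. Across 37 members Spearman's rho of the mean adult log2 ratio to ATFB was -0.13 with the mean RPKM, 0.26 with the GC content of the cluster and 0.37 with its length, and across the 36 members with an annotated coding range 0.0090 with the coding share. These values are descriptions across genes that share the same 4 libraries.

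The 3 adult libraries can also be set against ATFB in 1 fit, in which the spread is that of 3 libraries of different sex and castration. Fewer members than given below were called in this fit with TMM factors or without the filter on low counts. More were called with a likelihood ratio test. In edgeR's quasi-likelihood test with Benjamini-Hochberg adjustment, 5 of 37 members were lower in the adult libraries at an FDR of at most 0.05, where 6.64% of 25584 clusters were, and 0 were higher, where 8.04% were. The 5 were MRPL17 at a log2 ratio of -2.37 (adjusted p = 0.00863), MRPS6 at -1.42 (0.0204), MRPL1 at -1.39 (0.0267), MRPL57 at -1.29 (0.0397) and MRPS34 at -1.31 (0.0434). At an unadjusted p under 0.05 there were 12 members, all lower in the adult libraries, where 15.5% of clusters were. DESeq2 called 6 members lower and 0 higher, where 8.38% and 12.6% of clusters were. Without ATAB no cluster of any kind passed in edgeR, and without ATAH 2 members were lower, beside 6.37% of clusters, and without ATAS 5 were, beside 10.2%. In the tests between 2 libraries no member was called in any comparison with ATFB when edgeR's exact test assumed a biological coefficient of variation of 0.4, where 0.54%, 0.662% and 0.806% of all clusters were, and MRPL17 had the smallest FDR of the members at 0.0823, 0.231 and 0.0543.

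Markers of cell types also differed between ATFB and the adult libraries, some in the direction of the members and some in the other. The 10 fat cell markers with a cluster were called higher in ATAB and ATAH for all 10 and in ATAS for 8. The 2 red cell markers with a cluster, HBG2 and ALAS2, summed to 2390 RPKM in ATFB against 0.761, 1.54 and 0 in ATAB, ATAH and ATAS, the last with no read of either. The 9 fibroblast and progenitor markers, among them collagen genes and DLK1, were called lower for 2 in ATAB and for 6 in both ATAH and ATAS, and DLK1 had no read in ATAB. PDGFRB of the same list was called higher in ATAH and ATAS, at 1.12 and 1.59. Of the 8 leukocyte markers 5, 4 and 5 were called higher in ATAB, ATAH and ATAS, with sums from 123 RPKM in ATFB to 319 in ATAS, and CD79A, with no read in ATAB, was called lower there. The 6 endothelial markers summed to 547, 387, 557 and 721 RPKM in ATFB, ATAB, ATAH and ATAS. They were called higher for 1, 2 and 2 and lower for 2, 1 and 0, VWF being higher in all 3 adult libraries and EMCN lower in ATAB and ATAH. The 4 muscle markers summed to no more than 5.11 RPKM in any library. Of them MYH2, with 18 reads in ATFB and 1 in ATAB, was called lower in ATAB, as was ACTA1 with ACTB scaling. None was called in ATAH or ATAS. Fibroblast markers summed to 14700 RPKM in ATFB and 9887, 2983 and 3950 RPKM in ATAB, ATAH and ATAS. Scaling by TMM or ACTB altered these counts by at most 2 in any list and library, among them PDGFRB in ATAH, no longer called with ACTB, and CD79A in ATAB, no longer called with TMM. The part of these cells in the members' ratios was not tested.

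The proteins of the cytosolic ribosome, of which 6 were matched to a cluster here, were set beside the members. They are a small part of that ribosome, all of its large subunit, and RPL39 had at most 14 reads in a library. All 5 with enough reads had lower values in each adult library, and 5, 6 and 5 were called lower in ATAB, ATAH and ATAS. Their median log2 ratios of -1.68, -1.79 and -1.84 were further from 0 than those of the members, and RPL13A alone had 2119 RPKM in ATFB and 528, 438 and 495 in the adult libraries. No test of this difference was made, and cytosolic ribosomal proteins have many near-identical copies among which reads can be lost.

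Between adult libraries no member was called when libraries were scaled by their totals. With TMM scaling 2 were called lower in ATAS against ATAB. ATAH against ATAB, heifers against bulls, had 0 of 37 higher and 0 lower, where 4.14% and 1.23% of all clusters were. ATAS against ATAB, castrated against intact males, had 0 higher and 0 lower beside 6.86% and 1.87%. ATAS against ATAH likewise had 0 and 0 beside 1.52% and 1.48%. The highest adult level of a member was at most 1.97 times its lowest, with a median of 1.26. The median was 1.58 for the 21860 clusters with enough reads. Those clusters were not matched to the members in reads, and counting error widens this ratio where reads are few.

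Smaller differences ran mostly in 1 direction in the library of steers. ATAS was the lowest adult library for 23 of 37 members (62.2%), 8 small and 15 large, where it was the lowest for 21.7% of 21860 clusters. The median log2 ratio of the members was -0.10 for ATAS against ATAB and -0.22 for ATAS against ATAH, beside 0.33 and 0.07 for all clusters with at least 50 reads. ATAS was below ATAH for 30 of 37 members and below ATAB for 26. In ATAS against ATAB 4 of 8 leukocyte markers and 1 of 6 endothelial markers were called higher, and 4 of 9 fibroblast markers lower and 1 higher. Of the 10 fat cell markers 1 was higher and 2 lower there. With TMM scaling 2 leukocyte and 0 endothelial markers were higher in that comparison, and 0 fat cell markers were higher and 4 lower. In ATAS against ATAH 1 leukocyte marker was higher and 1 fat cell marker, CIDEA, lower. Of the 4 muscle markers 1 was higher against ATAB, and 1 was higher and 1 lower against ATAH, where 1 of 2 red cell markers was also lower. In ATAH against ATAB 4 fibroblast markers were lower and 1 higher, and 1 muscle marker was higher. Their part in the members' ratios was not tested. ATAH against ATAB had a median of 0.05, beside 0.26 for all clusters, and of -0.23 when libraries were scaled by TMM, which shifted the median of all clusters by -0.28.

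At any fold, 9 members passed the FDR as lower in ATAS than in ATAH and 1 as higher, beside 8.63% and 15.3% of clusters with at least 50 reads. Against ATAB, 6 were lower in ATAS and 2 higher, beside 9.35% and 33.9%. ATAH was higher than ATAB for 5 and lower for 2, beside 26% and 7.31%. Here too the clusters were not matched to the members in reads. The difference between the median of the members and that of all clusters with at least 50 reads, which no scaling of the libraries alters, stood at -0.43, -0.64 and -0.77 in ATAB, ATAH and ATAS against ATFB, at -0.22 in ATAH and -0.42 in ATAS against ATAB, and at -0.28 in ATAS against ATAH.

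**Figure D3:**
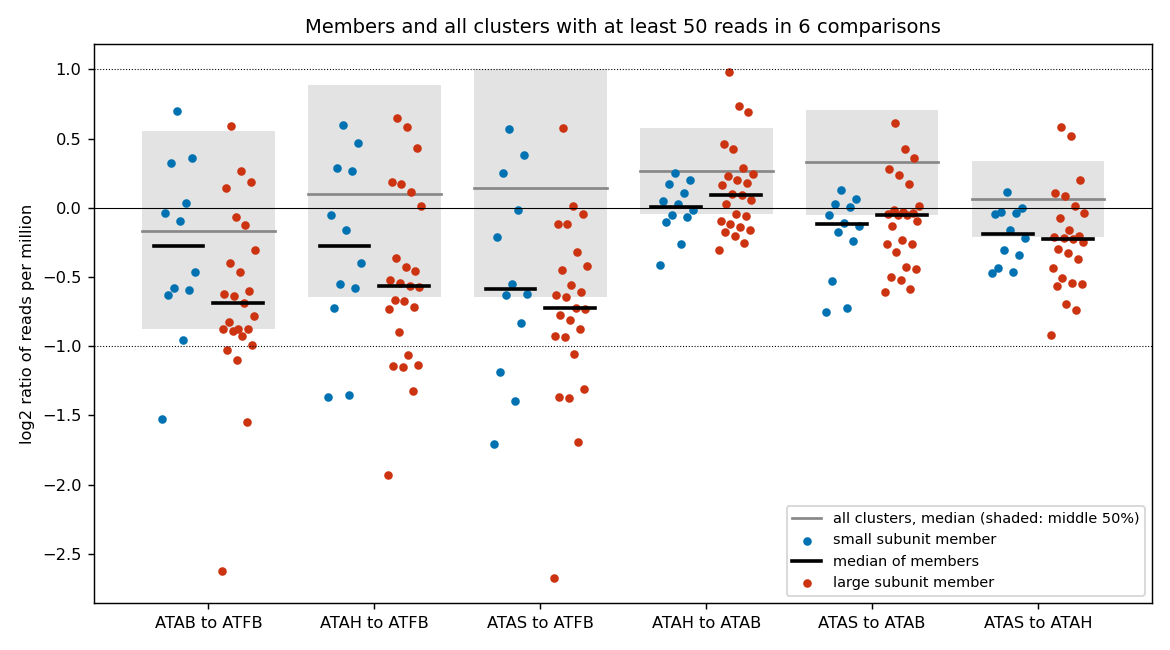
The log2 ratio of RPM in 6 comparisons, 1 point per member (blue, small subunit; red, large subunit), with black bars at the members' medians; grey lines and shading give the median and middle 50% of all clusters with at least 50 reads, and dotted lines a log2 ratio of 1 in size. In the 3 comparisons with ATFB no point reaches the upper dotted line, and between adult libraries no point crosses either line.

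Named members gave the outer values among adult libraries. MRPL15, an inner core protein of the large subunit, had 232, 442 and 272 reads in ATAB, ATAH and ATAS and the largest of these ratios, 0.98 (95% interval 0.75 to 1.22) for ATAH against ATAB. It stood alone in height in ATAH, at 14.8 RPKM against 7.50 in ATAB and 9.13 in ATAS, and 57.3% of its 40-base windows were shared with another cluster. MRPL32, which is cut by the m-AAA protease before it joins the ribosome, followed with 0.73 in the same comparison.

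The falls in ATAH against ATAB were led by MRPS34 at -0.41 and MRPL54 at -0.30. In ATAS against ATAB MRPS34 had -0.75 (95% interval -0.92 to -0.59) and MRPS12 -0.72 (-1.02 to -0.43). In ATAS against ATAH MRPL46 had -0.92 (-1.20 to -0.64) and MRPL17 -0.74 (-1.07 to -0.42). MRPL46 had 239 reads in ATAB, 309 in ATAH and 163 in ATAS.

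MRPL10 had the largest ratio above 0 in the library of steers against both other adult libraries. It had 893, 879 and 1316 reads in ATAB, ATAH and ATAS, or 23.1, 23.6 and 35.3 RPKM, and reached in ATAS the fetal level of 35.0 RPKM. Its ratios were 0.61 (95% interval 0.49 to 0.74) against ATAB and 0.59 (0.46 to 0.71) against ATAH. MRPL38 with 0.42 against ATAB and MRPL47 with 0.52 against ATAH were next. The fall of MRPS34 and MRPS12 in ATAS against ATAB passed the fold threshold when libraries were scaled by TMM, at -1.05 and -1.02, where 3.45% of all clusters were called lower.

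Genes that serve the mitochondrial ribosome were set beside the members. Scaling by TMM shifted the ratios to ATFB by 0.18, -0.10 and -0.12 in ATAB, ATAH and ATAS and scaling by ACTB by -0.24, -0.27 and -0.25. The sign of a list median near 0 depends on the scaling, and so do calls near the fold threshold, which are named with each list. Of 6 subunits that carry other names, 3 had a cluster and none was called, except ICT1 as lower in ATAB with ACTB scaling. DAP3, a small subunit protein known from apoptosis, had ratios to ATFB of 0.42, 0.68 and 0.49 in ATAB, ATAH and ATAS, ICT1, a peptidyl-tRNA hydrolase built into the large subunit, had -0.85, -0.57 and -0.67, and PTCD3 had -0.23, 0.28 and -0.01.

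Assembly and RNA modification factors with a cluster were 17 of 22. They were called lower for 4, 2 and 1 and higher for 1, 1 and 0 in ATAB, ATAH and ATAS, with medians of -0.27, 0.23 and -0.07. RPUSD4, a pseudouridine synthase, was lower in all 3, at -1.36, -1.001 and -1.10, and NOA1, a GTPase, in ATAB and ATAH, at -1.03 and -1.07. METTL17 was higher in ATAB and ATAH, at 1.05 and 1.08, with 213 reads in ATFB and 467, 460 and 380 in the adult libraries. MTG2, with the next largest mean over the adult libraries, stood at 0.75, 0.82 and 0.65. With TMM scaling 2, 2 and 2 were lower and 1, 0 and 0 higher, NOA1 and GTPBP10 in ATAB and METTL17 in ATAH losing the call, and with ACTB scaling 4, 3 and 2 were lower and none higher.

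Of 14 translation factors 13 had a cluster, and 1, 0 and 0 were lower and 1 higher in each of ATAB, ATAH and ATAS. The higher one was TACO1, an activator of translation of a cytochrome oxidase subunit, with 6 reads in ATFB and 62, 74 and 82 in the adult libraries. MTRF1L, a release factor, was lower in ATAB at -1.22, with -0.83 and -0.80 in the others. MRRF, the recycling factor, had -0.52, -0.81 and -0.63, and GFM1, an elongation factor, 0.48, 0.50 and 0.21. TUFM, the elongation factor that brings tRNA to the ribosome, had 69.9, 56.4, 48.9 and 37.6 RPKM in ATFB, ATAB, ATAH and ATAS, with none of its ratios called. TMM scaling made TUFM and TSFM lower in ATAS, and with ACTB scaling 1, 2 and 3 factors were lower, the one higher remaining TACO1. In ATAH against ATAB MTRF1 was called higher at 1.11, and not with TMM scaling (0.84). In ATAS against ATAB TSFM was called lower with TMM scaling only, at -1.14.

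The tRNA synthetases of mitochondria, 14 of 17 with a cluster, had medians of 0.10, 0.45 and 0.32. They were higher for 2, 3 and 2 and lower for 1, 1 and 0. PARS2 and LARS2, which charge proline and leucine tRNA, were higher in all 3 libraries, LARS2 in ATAB not with ACTB scaling (0.96). PARS2 had only 9 reads in ATFB and 45, 49 and 62 in the adult libraries, and LARS2 had 191 reads in ATFB and 464, 493 and 489 in the adult ones. WARS2 for tryptophan was lower in ATAB and ATAH, at -1.50 and -1.81, and FARS2 for phenylalanine stood at -0.73, -0.73 and -0.81. MARS2 for methionine was the third called higher in ATAH, and not with ACTB scaling. WARS2 was lower in ATAS too with either scaling, and FARS2 with that by ACTB.

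Of 13 genes for expression of mitochondrial DNA 7 had a cluster and medians of -0.12, 0.20 and 0.12. POLRMT, the mitochondrial RNA polymerase, was higher in ATAH at 1.20 and in ATAS at 1.38, and POLG2, a subunit of the DNA polymerase, was lower in ATAB at -1.15. TFAM, which packs mitochondrial DNA, had 0.17, 0.47 and 0.48, and LRPPRC, which stabilizes mitochondrial messenger RNA, had -0.13, -0.11 and -0.14. The call of POLG2 ended with TMM scaling (-0.97), which made POLRMT higher in ATAB as well, and that of POLRMT in ATAH ended with ACTB scaling (0.93).

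Protein import genes, 8 of 20 with a cluster, had medians of -0.52, -0.19 and -0.67. TIMM13, a chaperone between the membranes, was lower in ATAB at -1.35, and TIMM9 was lower in ATAS at -1.33. PMPCA, a subunit of the peptidase that removes import signals, had 0.53, 0.36 and 0.17, and TIMM50 -0.01, -0.21 and -0.37. With ACTB scaling TIMM9 was lower in ATAB and TIMM22 in ATAS as well.

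Regulators of nuclear genes for mitochondria, 8 of 10 with a cluster, were higher for 0, 2 and 3 and lower for 1, 0 and 0. GABPA, the DNA-binding subunit of a factor that binds many promoters of such genes, was higher in ATAH and ATAS, at 1.14 in each, with 0.72 in ATAB, while its partner GABPB1 was lower in ATAB at -1.09. MYC had 88.8 RPKM in ATFB against 73.0, 196 and 222 in ATAB, ATAH and ATAS and was higher in ATAH and ATAS. PPRC1, a coactivator, was higher in ATAS at 1.11. The other regulators were called in no comparison with ATFB, NRF1 standing at -0.68, 0.03 and 0.00, ESRRA at 0.48, 0.61 and 0.10, YY1 at -0.46, -0.15 and 0.12 and PPARGC1A at -0.40, -0.07 and 0.68. Between ATAS and ATAB MYC, at 1.60, and PPARGC1A, a coactivator of mitochondrial biogenesis, at 1.08, were called higher, and between ATAH and ATAB MYC was, at 1.42. The calls of regulators depended on the scaling. With ACTB those of GABPA in ATAH and ATAS (0.87 and 0.88), MYC in ATAH (0.87) and PPRC1 in ATAS (0.86) ended, and with TMM those of GABPB1 in ATAB (-0.91), PPRC1 in ATAS (0.99) and PPARGC1A in ATAS against ATAB (0.78).

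**Figure D4:**
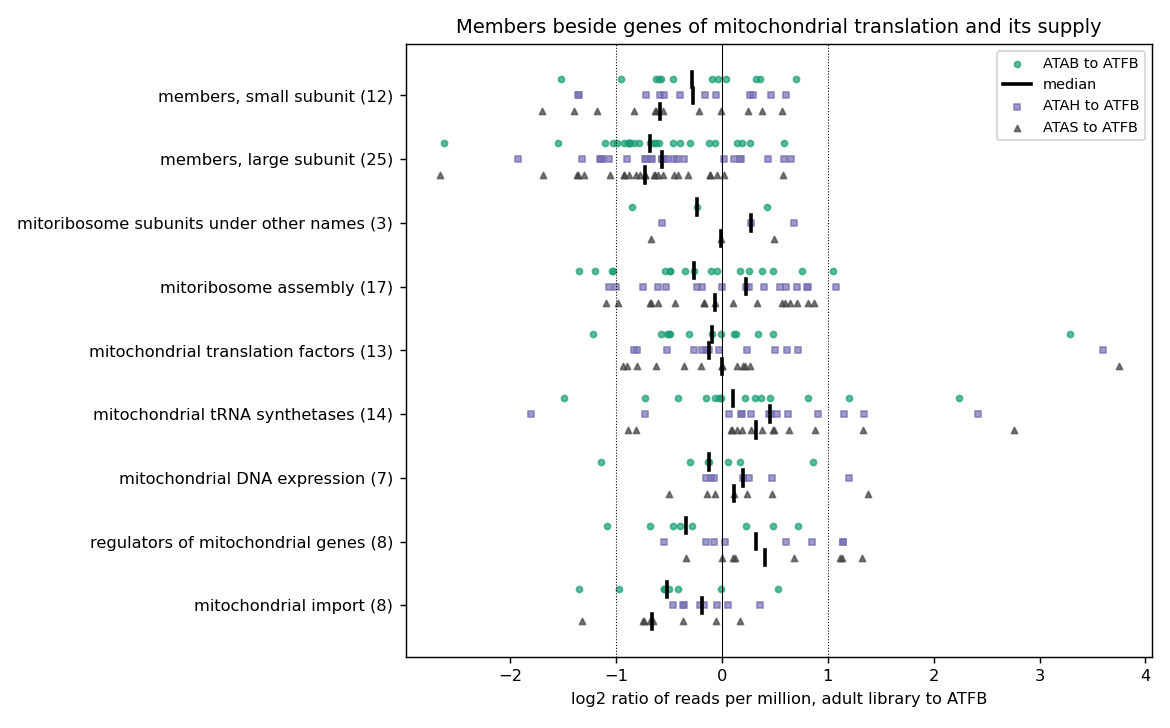
The log2 ratio of RPM to ATFB for the members and for 7 lists of related genes, in ATAB (circles), ATAH (squares) and ATAS (triangles), with black bars at the medians and the number of clusters in brackets; dotted lines mark a log2 ratio of 1 in size. The medians of the small and the large subunit lie below 0 in all 3 libraries, and those of the other lists lie between -0.67 and 0.45.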

How the data were processed

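The members and gene lists were chosen with earlier results of these data known. The authors prepared poly(A) RNA of each pool for Illumina sequencing, aligned the cleaned reads with SOAPaligner and kept reads that matched once. The labels name CASAVA, without a version. The authors deposited raw read counts per UniGene cluster, RPKM values derived from those counts and, as a percent, the coverage of every cluster by reads. The coordinates of clusters were not used here. Deposited RPKM differed from values recomputed from counts by a relative 5.9e-08 at most. Strand was not given in the sources used here, so overlapping antisense transcripts cannot be told apart. Symbols came from descriptions in the deposited sequence file and from RefSeq's gene table (assembly ARS-UCD2.0), in which all 37 member symbols were found.

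Each library's group came from its label. The 6 pairs of libraries were compared by the exact binomial test (SciPy 1.17.1), with Benjamini-Hochberg adjustment over clusters with a read in either library (33724 to 34589). A count of 0 was read as 3 reads. ATFB and the 3 adult libraries were compared with edgeR 4.0.16 (filterByExpr, library totals as offsets, glmQLFit and glmQLFTest) in R 4.3.3. DESeq2 1.42.0, TMM factors, ACTB as scaling gene, other filters, symbols added together, an assumed variation of 0.4 and leaving out each adult library were alternatives. The tests were also run on simulated data, with counting error alone for the binomial test and a set spread for edgeR's. That spread was below the biological coefficient of variation of 0.324 estimated here. These runs therefore do not show how the tests behave at the spread of these libraries. Per library the clusters held 15.3 M to 16.1 M reads and members 104 to 1938 reads, and intervals cover counting error only.

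Members named were those of highest and lowest mean RPKM per subunit, those called in all 3 comparisons with ATFB, the 2 largest rises and falls per comparison and any called between adult libraries, and, of the other lists, the 2 largest changes each way and every regulator. Members called in 1 or 2 comparisons, those of 1 structural region and a few other list genes were named after their values were seen.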

Additional observations from a re-analysis of the deposited data

How the results depend on the processing

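Each group was 1 pooled library, and members with as few as 104 reads in a library had wide counting intervals. No paired analysis was possible because each group had 1 library. Scaling by TMM moved the members called from 5 to 3 in ATAB against ATFB, MRPL57 and MRPL38 losing the call, and from 0 to 2 in ATAS against ATAB. ACTB as scaling gene gave 14 and 15 members called in ATAB and ATAS against ATFB, all lower. With an assumed variation of 0.4 edgeR's exact test called 0 in all 3 comparisons with ATFB. The medians of the members against ATFB in ATAB, ATAH and ATAS were -0.42, -0.65 and -0.75 by TMM and -0.84, -0.82 and -0.88 by ACTB. Between adult libraries, TMM gave medians of -0.23 for ATAH and -0.39 for ATAS against ATAB, the former changing sign, and ACTB gave 0.010 for ATAH against ATAB. These scalings moved the median of all clusters by as much (0.18, -0.10 and -0.12 by TMM and -0.24, -0.27 and -0.25 by ACTB against ATFB, and -0.28, -0.30 and -0.02 by TMM between adult libraries). In edgeR's test of ATFB against the adult libraries, leaving out 1 library gave 0 to 5 members called, 0 without ATAB, 2 without ATAH and 5 without ATAS. Of 145 values of called members under an alternative, 34 were no longer called, 22 of them with the assumed variation. Leaving out the 8 members that share at least 20% of their windows with another cluster, an alternative chosen after seeing the data, gave medians of -0.62, -0.55 and -0.64 in ATAB, ATAH and ATAS against ATFB.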

Other observations

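MRPL46 and MRPS11 are next to each other in RefSeq's gene table (assembly ARS-UCD2.0), the only pair of members that are neighbours there. Their log2 ratios to ATFB were -0.88, -0.46 and -1.38 for MRPL46 in ATAB, ATAH and ATAS and -0.10, -0.16 and -0.63 for MRPS11, both lowest in ATAS. No test of their likeness was made, and the ratios share the reads of ATFB.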
